A study of Mus musculus with 8 samples.

Results

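The sinusoidal endothelium of the liver was followed through 10 of its marker genes (Stab1, Stab2, Lyve1, Clec4g, Kdr, Pecam1, Cdh5, Oit3, Fcgr2b and Eng) in livers of mice lacking Rap1 and of wild-type mice. The 10 genes, of 19752 that could be named on the array, were taken with every non-control probe whose accession led to them, which gave 11 of 55681 probes, with 2 for Kdr and 1 for each other gene. Liver RNA was hybridized to Agilent mouse arrays read in 1 colour, 1 liver per array. The Rap1 -/- group held 4 livers and the wild-type group 4, all from mice aged 10 weeks on a C57BL6/129SV (90%:10%) background. Rap1 -/- mice are whole-body knockouts of the gene (Terf2ip, on chromosome 8) from early development. They were derived from Rap1 flox/flox mice and a cre line driven by the adenovirus EIIa promoter, and the cre allele was bred out afterwards. The labels do not state the sex or feeding of the animals, while the paper speaks of young females for the expression studies before obesity. The endothelium was therefore read within whole liver, in which fewer cells of a type and less RNA per cell cannot be told apart.

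Sinusoidal endothelial cells line the capillaries of the liver. Unlike most endothelium they are fenestrated, rest on almost no basement membrane and take up macromolecules from the blood at a high rate through scavenger receptors. They also secrete WNT ligands, BMPs and other factors that act on hepatocytes. In chronic liver injury they can lose fenestrae and take on features of continuous capillaries, a change called capillarization.

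None of the 11 probes passed the test for a difference between Rap1 -/- and wild-type liver, in either direction. The mean of Fcgr2b was 1.31-fold that of wild type and the mean of Lyve1 0.629-fold, the highest and lowest of the 11 ratios, and neither passed the test. The livers did differ among themselves, with 9 of the 11 probes low together in some mice and high together in others of both genotypes. Levels below are log2 signal relative to the 75th percentile of the same array, so that 0 stands for that percentile, and they are compared between livers but not between probes. Differences are Rap1 -/- minus wild type on the same log2 scale, with 4 livers per genotype, the standard error (SE) from limma and p-values adjusted by Benjamini-Hochberg over the 31068 probes tested.

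Because most of the markers moved together between livers, the sequence upstream of their genes was examined for letters that factors of endothelial cells can read. ETS factors such as FLI1, ERG and ELK3, which maintain endothelial gene expression, bind a GGAA core, and GATA factors bind a GATA core. The RefSeq promoter table (build GRCm38.p6) held 6 of the 10 genes, namely Stab1, Stab2, Clec4g, Kdr, Fcgr2b and Eng, and Lyve1, Pecam1, Cdh5 and Oit3 are only named. In the 250 bases before each start, the hexamers AGGAAG and CGGAAG were sought on both strands, with overlapping matches counted, and so was AGATAA. Either ETS hexamer was in 4 of the 6 windows, and in 39.2% of the 32851 windows of the same length (AGGAAG in 29.5%, CGGAAG in 13.6%). The GATA hexamer was in 0 of the 6 windows, and in 9.99% of all windows. The windows below are those of Clec4g, with the most matches (3, of which 2 overlap), of Stab1, the only window of the 6 with both hexamers, of Eng, with 2 matches, and of Fcgr2b, with none. They are written 5′ to 3′ on the strand of the gene, and capitals mark the ETS hexamers or their reverse complements.
Clec4g, chr8:3720652-3720901, minus strand: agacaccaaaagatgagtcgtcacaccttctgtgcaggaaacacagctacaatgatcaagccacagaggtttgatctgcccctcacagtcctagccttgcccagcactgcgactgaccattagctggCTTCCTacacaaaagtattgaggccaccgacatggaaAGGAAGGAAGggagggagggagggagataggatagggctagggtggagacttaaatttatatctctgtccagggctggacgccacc
Stab1, chr14:31168642-31168891, minus strand: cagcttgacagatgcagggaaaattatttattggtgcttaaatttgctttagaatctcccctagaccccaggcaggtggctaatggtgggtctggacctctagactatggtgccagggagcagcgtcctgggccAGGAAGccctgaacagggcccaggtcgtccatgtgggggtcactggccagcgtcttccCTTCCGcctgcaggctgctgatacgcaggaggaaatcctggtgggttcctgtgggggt
Eng, chr2:32646345-32646594, plus strand: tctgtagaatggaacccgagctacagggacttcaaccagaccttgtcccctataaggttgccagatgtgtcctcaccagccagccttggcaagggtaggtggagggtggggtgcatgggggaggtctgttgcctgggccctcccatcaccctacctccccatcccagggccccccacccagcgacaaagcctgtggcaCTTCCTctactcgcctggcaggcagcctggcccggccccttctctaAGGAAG
Fcgr2b, chr1:170976072-170976321, minus strand: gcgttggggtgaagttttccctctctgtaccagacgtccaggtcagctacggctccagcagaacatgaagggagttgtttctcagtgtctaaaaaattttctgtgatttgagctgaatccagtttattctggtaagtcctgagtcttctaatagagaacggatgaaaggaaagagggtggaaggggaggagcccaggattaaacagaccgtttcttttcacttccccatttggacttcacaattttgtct
The window of Stab2 had 1 match and that of Kdr none. A match is a description of these letters and does not show that a factor was bound.

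All 11 probes were well above background on all 8 arrays, so each of the 10 genes was detectable in every liver. Of these probes, 0 passed at an adjusted p under 0.05 (limma), against 0.00644% of all probes tested, and adjusted p-values were between 0.813 and 0.999. None had an adjusted p under 0.15 either, against 0.0161% of all probes. At an unadjusted p under 0.05, 1 of 11 passed (Lyve1), against 6.12% of all probes. In 0 of 11 did the genotypes not overlap, whereas all 4 Rap1 -/- livers were above all 4 wild-type livers for 2.38% of probes and below them for 1.81%. Differences were above 0 for 6 of 11 probes, against 49.7% of all probes. With 1 probe per gene, the median difference of the 10 genes was 0.03, against 0.02 over the 14066 genes tested. There, and in the marker mean and summed levels below, Kdr was represented by probe A_55_P2094469. Its difference was -0.16, where that of the other Kdr probe was 0.093.

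**Figure D1:**
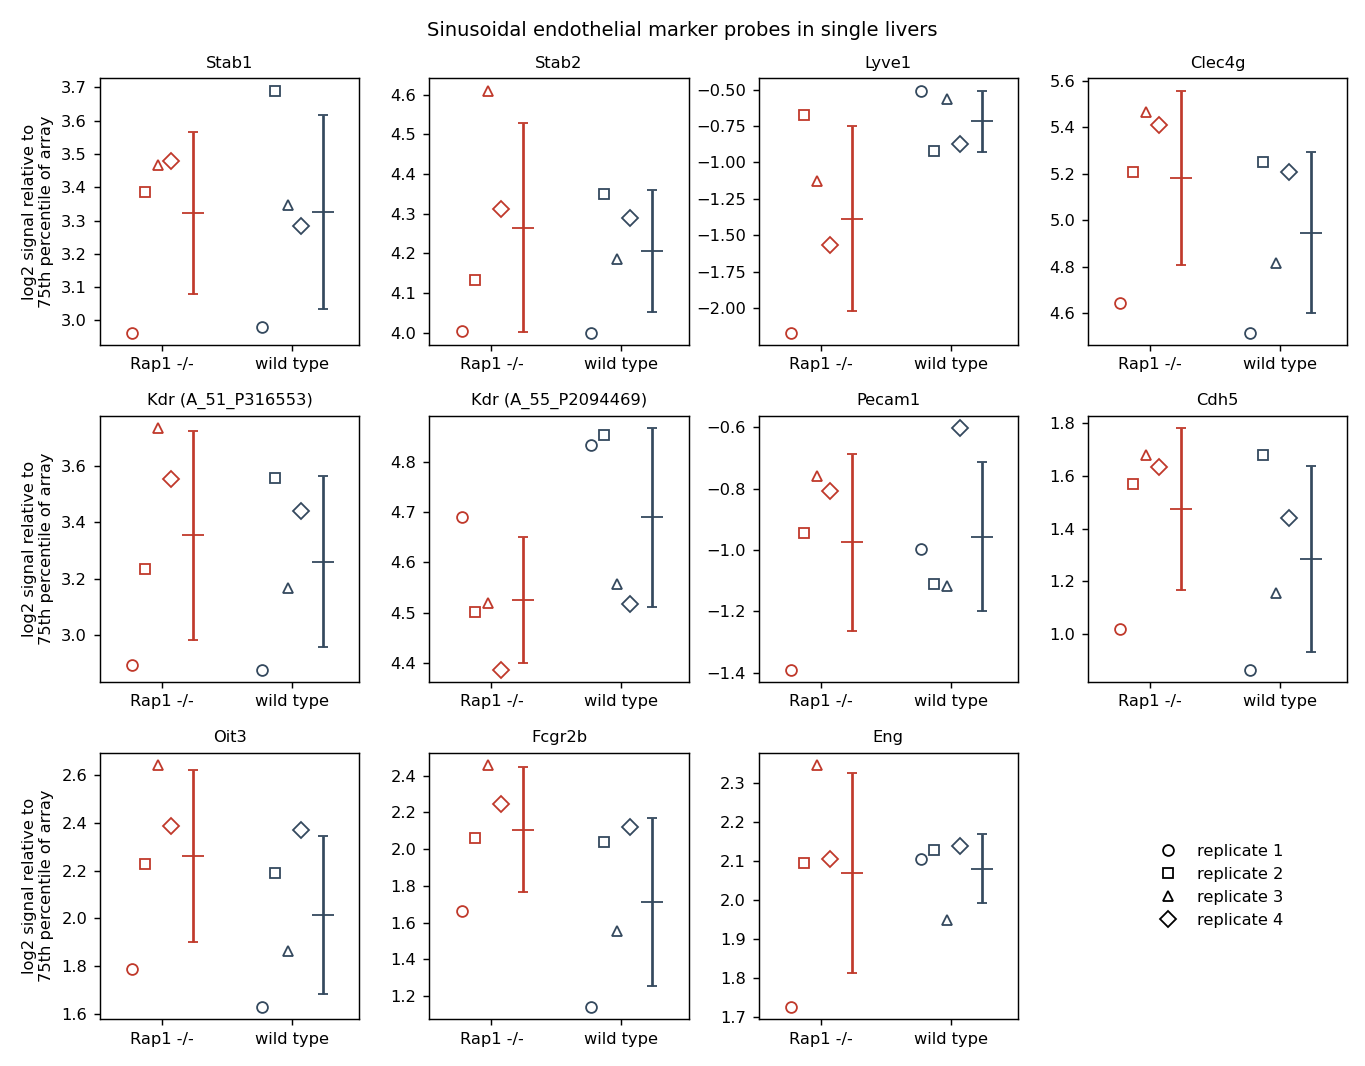
Log2 signal relative to the 75th percentile of the array for each of the 11 marker probes, in 4 Rap1 -/- livers (left, red) and 4 wild-type livers (right, dark blue). Symbols mark the replicate, the bars give the mean ± SD (n = 4), and each panel has its own axis. The genotypes overlap in every panel.

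The scavenger receptors were examined first. Stab1 encodes stabilin-1, which takes up modified lipoproteins and other ligands, and Stab2 encodes stabilin-2, the main clearance receptor for hyaluronan. Stab1 was at 2.96, 3.39, 3.47 and 3.48 in Rap1 -/- livers 1 to 4, against 2.98, 3.69, 3.35 and 3.28 in wild-type livers 1 to 4. The genotypes overlapped, with the lowest liver of each at nearly the same level, and the difference was -0.0020 (SE 0.18, 95% interval -0.41 to 0.40, adjusted p = 0.999). Stab2 was at 4.00, 4.13, 4.61 and 4.31 in Rap1 -/- livers, against 4.00, 4.35, 4.19 and 4.29 in wild-type livers. Its highest liver was Rap1 -/- replicate 3, and its difference was 0.059 (SE 0.15, 95% interval -0.29 to 0.40, adjusted p = 0.964). Both intervals allowed changes of at most 1.32-fold upwards.

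Lyve1 encodes a hyaluronan receptor shared by sinusoidal and lymphatic endothelium. Its probe was at -2.17, -0.68, -1.13 and -1.57 in Rap1 -/- livers, against -0.51, -0.92, -0.56 and -0.87 in wild-type livers. In 3 of the 4 Rap1 -/- livers it was below every wild-type liver, while Rap1 -/- replicate 2 lay among them. The mean was -1.39 ± 0.64 in Rap1 -/- livers and -0.72 ± 0.21 in wild-type livers (SD, n = 4 each), a difference of -0.67 (SE 0.29, 95% interval -1.33 to -0.01). This was the smallest p-value of the 11 (limma, unadjusted p = 0.0477, adjusted p = 0.813), and the two-sided exact permutation p was 0.0857, where 0.0286 is the smallest that 4 against 4 allow. Within slide 1 the difference was -0.71 and within slide 2 it was -0.63, and 2 arrays of each genotype on a slide allow no exact p below 0.333. The difference was -0.41 without Rap1 -/- replicate 1, in which the probe was lowest, and -0.90 without Rap1 -/- replicate 2.

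Fcgr2b encodes the inhibitory IgG receptor by which sinusoidal endothelium removes immune complexes, and B cells and macrophages express it too. It was at 1.66, 2.06, 2.46 and 2.24 in Rap1 -/- livers, against 1.14, 2.04, 1.55 and 2.12 in wild-type livers. Of the Rap1 -/- livers, 2 were above every wild-type liver, and the remaining 2 lay among them. The mean was 2.11 ± 0.34 in Rap1 -/- livers and 1.71 ± 0.46 in wild-type livers (SD, n = 4 each). The difference of 0.39 (SE 0.25) corresponded to 1.31-fold with a 95% interval of 0.884 to 1.95 (adjusted p = 0.837), and it was 0.20 without wild-type replicate 1 and 0.54 without Rap1 -/- replicate 1.

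Clec4g encodes LSECtin, a C-type lectin of sinusoidal endothelium, and Oit3 encodes a protein with a zona pellucida domain. Clec4g was at 4.64, 5.21, 5.47 and 5.41 in Rap1 -/- livers, against 4.52, 5.25, 4.81 and 5.21 in wild-type livers. Replicate 1 was the lowest liver of each genotype, and the difference was 0.24 (SE 0.23, 95% interval -0.29 to 0.76, adjusted p = 0.879). It was 0.09 without wild-type replicate 1 and 0.42 without Rap1 -/- replicate 1. Oit3 was at 1.79, 2.23, 2.64 and 2.39 in Rap1 -/- livers, against 1.63, 2.19, 1.86 and 2.37 in wild-type livers. The order of the livers was nearly that of Clec4g, with Rap1 -/- replicate 3 highest and wild-type replicate 1 lowest of the 8, and the difference was 0.25 (SE 0.22, 95% interval -0.25 to 0.75, adjusted p = 0.872), or 0.12 and 0.41 without the same arrays.

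Kdr encodes VEGFR2, the receptor through which VEGF-A sustains endothelium, and its 2 probes behaved differently. Probe A_51_P316553 was at 2.89, 3.23, 3.73 and 3.55 in Rap1 -/- livers, against 2.88, 3.56, 3.17 and 3.44 in wild-type livers. This is the pattern of Clec4g, with replicate 1 lowest in both genotypes, and the difference was 0.093 (SE 0.22, adjusted p = 0.960). Probe A_55_P2094469, assigned to the same transcript accession, was at 4.69, 4.50, 4.52 and 4.39 in Rap1 -/- livers, against 4.83, 4.85, 4.56 and 4.52 in wild-type livers. Replicate 1 was here the highest Rap1 -/- liver, and the difference was -0.16 (SE 0.12, 95% interval -0.45 to 0.12, adjusted p = 0.850). Over the 8 arrays the 2 probes had a Pearson r of -0.43, so a statement on Kdr depends on the probe read.

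At the cell junctions, Cdh5 encodes VE-cadherin, the adhesion molecule of endothelial adherens junctions, and Pecam1 encodes CD31, which platelets and leukocytes carry as well. Cdh5 was at 1.02, 1.57, 1.68 and 1.63 in Rap1 -/- livers, against 0.86, 1.68, 1.16 and 1.44 in wild-type livers. Rap1 -/- replicate 1 stood apart below the other three, and the difference was 0.19 (SE 0.21, 95% interval -0.29 to 0.67, adjusted p = 0.896). It was 0.05 without wild-type replicate 1 and 0.34 without Rap1 -/- replicate 1. Pecam1 was at -1.39, -0.94, -0.76 and -0.81 in Rap1 -/- livers, against -0.996, -1.11, -1.12 and -0.60 in wild-type livers. Its lowest liver was Rap1 -/- replicate 1 and its highest wild-type replicate 4, and the difference was -0.018 (SE 0.18, 95% interval -0.42 to 0.39, adjusted p = 0.991). Cdh5 and Clec4g lie on chromosome 8 with the targeted gene, with 125 and 620 tested genes as their distance from it in gene order.

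Eng encodes endoglin, the coreceptor for BMP9 and TGF-beta on endothelium. It was at 1.73, 2.10, 2.35 and 2.11 in Rap1 -/- livers, against 2.10, 2.13, 1.95 and 2.14 in wild-type livers. The Rap1 -/- livers held both the lowest and the highest value, with means of 2.07 ± 0.26 in Rap1 -/- livers and 2.08 ± 0.09 in wild-type livers (SD, n = 4 each). The difference was -0.012 (SE 0.14, 95% interval -0.33 to 0.31, adjusted p = 0.993).

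Each slide carried 2 Rap1 -/- and 2 wild-type arrays, so the differences were also taken within slides. They were above 0 for 4 of 11 probes within slide 1 and for 9 of 11 within slide 2. Over all genes tested, 57.4% were above 0 within slide 1 and 52.8% within slide 2. Clec4g, Cdh5, Oit3 and Fcgr2b were above 0 on both slides, 4 of 11, against 28% of all probes. Lyve1 and the Kdr probe A_55_P2094469 were below 0 on both. The estimate was higher on slide 2 than on slide 1 for 11 of 11 probes, all read in the same mice, and the share over all probes was not counted. By the genotype by slide interaction in limma 0 of 11 passed, and the lowest unadjusted p was 0.190 (Eng). The lowest adjusted p of this interaction among the markers was 0.9997, and the share of all probes that passed it was not counted. With slide as a block the lowest adjusted p was 0.774, that of Lyve1.

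**Figure D2:**
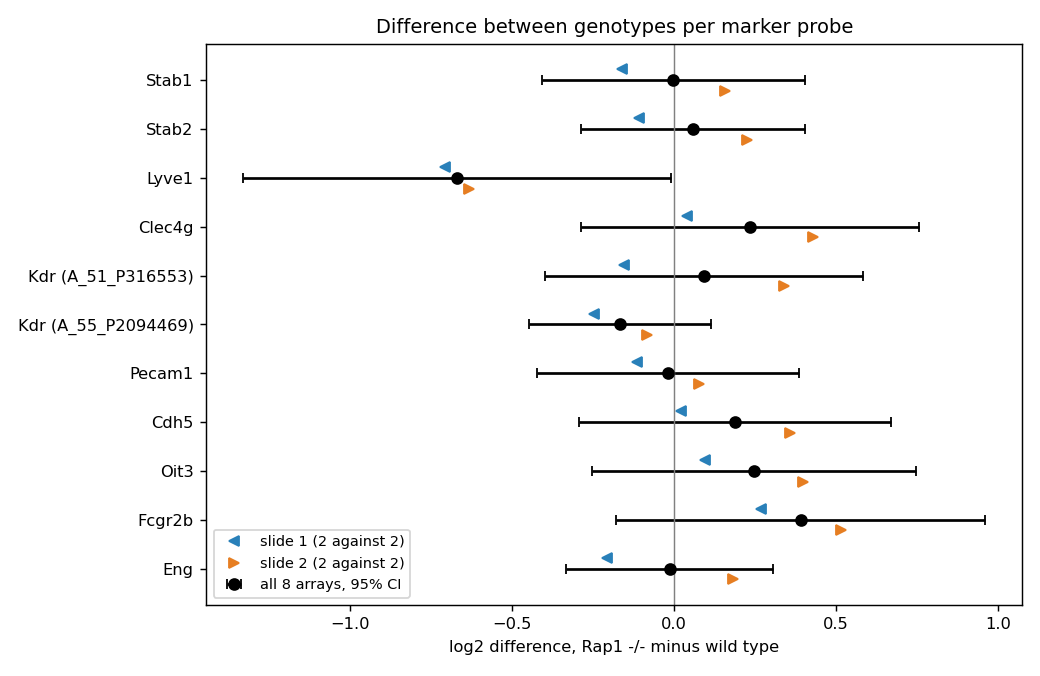
Log2 difference, Rap1 -/- minus wild type, for each marker probe: black points with bars give the estimate over 8 arrays with its 95% interval, and triangles the values within slide 1 (blue, pointing left) and slide 2 (orange, pointing right). All intervals include 0 except that of Lyve1, which ends at -0.01. Every slide 2 triangle lies to the right of its slide 1 triangle, but all were read in the same mice and the share over all probes was not counted.

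Beyond genotype, the markers varied between livers as a group. The mean of the 10 genes, each centred on its own mean, was -0.38, 0.08, 0.26 and 0.09 in Rap1 -/- livers 1 to 4, against -0.22, 0.14, -0.10 and 0.12 in wild-type livers 1 to 4. Replicate 1 was the lowest of its genotype for 10 of 11 probes among Rap1 -/- livers and for 7 of 11 among wild-type livers. Rap1 -/- replicate 3 was the highest of the 8 livers for 6 probes and wild-type replicate 2 for 3. Rap1 -/- replicate 1 also had the smallest share of probes well above background, 50.03% where the other arrays had up to 65.3%. Wild-type replicate 1 had the lowest 75th percentile of signal, 179, where the other arrays had up to 227, and the part of these array properties in the low marker levels was not tested. Without both arrays numbered 1, a choice made after seeing the values, 0 of 11 probes passed, and the median difference of the 10 genes was 0.11. The share of all probes that passed without these arrays was not counted.

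The pairwise correlations, given as a description over 8 arrays that share their RNA and array quality, showed which markers moved together. Clec4g had a Pearson r of 0.98 with Cdh5, 0.97 with Oit3 and 0.96 with Fcgr2b, and Oit3 had one of 0.97 with Fcgr2b. These values were almost the same after each genotype's mean was subtracted, with r of 0.98, 0.96, 0.97 and 0.97. Of the 11 probes, 9 correlated positively with each other in all 36 pairs, with r between 0.34 and 0.98 (median 0.80). These 9 were set apart after the values were seen, by leaving out Lyve1 and the Kdr probe A_55_P2094469. Lyve1 had an r between -0.25 and 0.47 with the 9 (median 0.02), and the Kdr probe one between -0.61 and -0.20. When Rap1 -/- replicate 1 and wild-type replicate 1, the 2 livers farthest from the median, were left out, the median r of the 36 pairs was 0.74 and its range -0.48 to 0.98. Lyve1 then had an r between -0.78 and -0.33 with the 9, and the Kdr probe A_55_P2094469 one between -0.58 and 0.68.

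**Figure D3:**
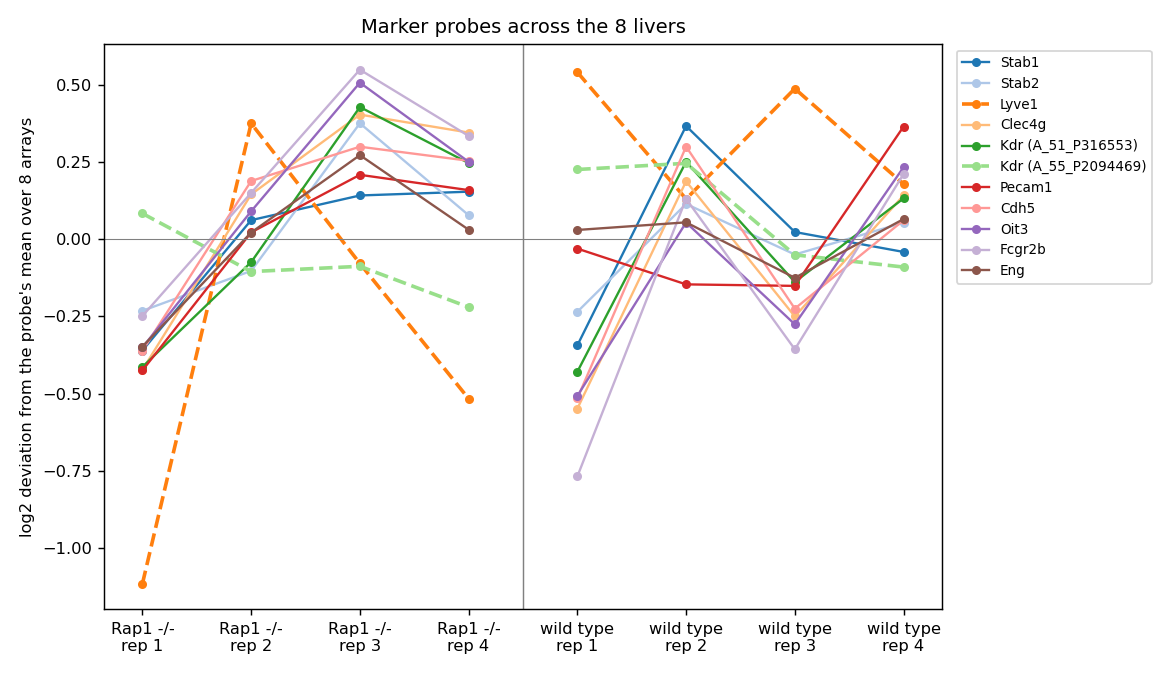
Deviation of each marker probe from its own mean over the 8 arrays (log2), in 4 Rap1 -/- livers (left) and 4 wild-type livers (right), with lines joining the values of 1 probe. The solid lines of 9 probes run close together, low in replicate 1 of each genotype except for Pecam1 and Eng in wild-type replicate 1, while the dashed lines of Lyve1 and the Kdr probe A_55_P2094469 take another course.

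The windows shown above can be read beside these values. Clec4g, Stab1, Stab2 and Eng hold ETS hexamers and moved with the group. So did Fcgr2b, whose window holds neither hexamer. Kdr, also without a hexamer, had a probe that moved with the group and another that did not. The windows of Fcgr2b and Kdr both hold the shorter GGAA core, whose share over all windows was not counted. A link between the hexamers and the levels was not tested.

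The genes with the pattern most like the mean of the 10 markers were then sought among 14052 genes with a value on all 8 arrays. The closest was Fli1, an ETS transcription factor of endothelium and blood cells, with a Pearson r of 0.972. After it came B3galnt1, a glycosyltransferase (0.970), Pcdh12, a cadherin-like protein of endothelial junctions (0.967), Msr1, the macrophage scavenger receptor (0.965), Mrc1, the mannose receptor of sinusoidal endothelium and macrophages (0.965), and Itgav, the integrin alpha V subunit (0.965). Rgl1 (0.963), Rcn3 (0.957), Micall2 (0.956) and Fam131a (0.953) completed the first 10. Over all genes the median r was 0.09, and 2.24% exceeded 0.8. None of the 10 passed between genotypes, with log2 differences between -0.05 (Rgl1) and 0.17 (Pcdh12). Leaving out any 1 array, their r remained between 0.914 and 0.982, a range wider than the steps between neighbours in this order.

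Genes of the endothelium were then grouped by role, with 1 probe per gene and p-values adjusted over 14066 genes. Of all these genes 0.0142% passed and 56.1% had a difference above 0, with 57.4% above 0 within slide 1 and 52.8% within slide 2. Some genes stand in more than 1 list, such as Ptprb, Bmp2, Bmp6, Flt4 and Reln, so the lists are not separate from each other. No gene of any list passed at an adjusted p under 0.05 (limma), and lists are therefore given by their counts and medians. The median over all genes was 0.02, with 0.05 within slide 1 and 0.01 within slide 2.

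Among the 14 genes of VEGF, angiopoietin and TIE signalling, 9 differences were above 0 and the median was 0.09, with 3 of 14 above 0 within slide 1 (median -0.11) and 11 of 14 within slide 2 (median 0.30). The smallest p-values were those of Pgf, a ligand of FLT1, at -0.50 (SE 0.22), of Tek, the angiopoietin receptor TIE2, at 0.50 (SE 0.28), and of Vegfc, at 0.20 (SE 0.12), with adjusted p of 0.779, 0.805 and 0.825. The receptors Flt1, Tie1 and Flt4 and the phosphatase gene Ptprb followed the marker mean with r of 0.87, 0.87, 0.85 and 0.81. Among 17 partners of endoglin in BMP and TGF-beta signalling, 10 were above 0 and the median was 0.03, with 6 above 0 within slide 1 and 10 within slide 2. The type II receptor gene Tgfbr2 was at 0.24 (SE 0.13), the BMP9 receptor gene Acvrl1 at -0.23 (SE 0.13) and Bmp6, which sinusoidal endothelium secretes to control hepcidin, at 0.36 (SE 0.26).

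Of 13 endothelial junction genes, 12 differences were above 0, with a median of 0.15, and 7 followed the marker mean with an r over 0.8, led by Cldn5 (0.917), the claudin of endothelial tight junctions. Tjp1 was at 0.22 (SE 0.10), Ctnnd1, encoding the p120 catenin that holds VE-cadherin at the membrane, at 0.17 (SE 0.09) and Jam3 at 0.21 (SE 0.14). Within slide 1 the differences of 9 of the 13 were above 0 and within slide 2 those of 12. For 19 endothelial transcription factors the count was 13 of 19 and the median 0.02, but within slide 1 it was 5 of 19 (median -0.17) and within slide 2 it was 19 of 19 (median 0.29). Besides Fli1, Maf (0.936) and Elk3 (0.921) followed the marker mean, whereas Erg, another ETS factor, had an r of 0.23 and a difference of -0.73 (SE 0.39, adjusted p = 0.797) that was -0.35 without wild-type replicate 2. Sox17 was at 0.39 (SE 0.20) and Sox18 at 0.43 (SE 0.24).

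A list of scavenger and lectin receptors of the sinusoid, 14 of 17 tested, had 12 differences above 0 and a median of 0.18. Of these, 9 were above 0 within slide 1 and 11 within slide 2. The list includes Fcgr2b (0.39), which is thus also counted among the markers. Cd36, the fatty acid translocase that hepatocytes and macrophages share, was at 0.66 (SE 0.33, adjusted p = 0.789), Cd55 at 0.38 (SE 0.22) and Flrt2 at -0.39 (SE 0.22). Of 14 angiocrine factors 11 were above 0, with a median of 0.09. The count was 3 of 14 within slide 1 (median -0.09) and 13 of 14 within slide 2 (median 0.31), and the median was 0.33 without both arrays numbered 1. Dll4, F8, Bmp2 and Rspo3 followed the marker mean with r between 0.82 and 0.94. Jag1, a NOTCH ligand, was at -1.14, -0.91, -0.75 and -1.24 in Rap1 -/- livers, against -1.31, -1.34, -1.34 and -1.50 in wild-type livers. All 4 Rap1 -/- livers were thus above all wild-type livers, as for 3.01% of all genes, and the difference was 0.36 (SE 0.12, unadjusted p = 0.0184, adjusted p = 0.770 by limma). Wnt9b was at 0.45 (SE 0.22) and Dll1 at -0.25 (SE 0.16).

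Markers of continuous endothelium and capillarization had a median of 0.22, with 13 of 16 tested genes above 0. Within slide 1 the count was 10 of 16 (median 0.12) and within slide 2 it was 14 of 16 (median 0.33), and the median was 0.13 with normexp and quantile normalization. Lama4, a laminin chain of vessel basement membranes, was at -0.38, -0.55, 0.21 and -0.45 in Rap1 -/- livers, against -1.15, -0.57, -0.71 and -0.70 in wild-type livers. The genotypes did not overlap, with all 4 Rap1 -/- livers above all wild-type livers, as for 3.01% of all genes. The nearest livers of either genotype were almost level, and the difference was 0.49 (SE 0.19, unadjusted p = 0.0326, adjusted p = 0.770 by limma). Cav2, encoding caveolin-2, was at 0.61 (SE 0.25, adjusted p = 0.770) and Cd34 at 0.36 (SE 0.19, adjusted p = 0.797). Among 6 lymphatic markers 2 were above 0, and Ccl21a was at 0.74 (SE 0.38), Pdpn at -0.51 (SE 0.34) and Reln at -0.25 (SE 0.15). The median difference of the lymphatic list was -0.10. Its summed level, to which Ccl21a adds much, was 4.90 to 8.95 in Rap1 -/- livers and 3.87 to 6.27 in wild-type livers.

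**Figure D4:**
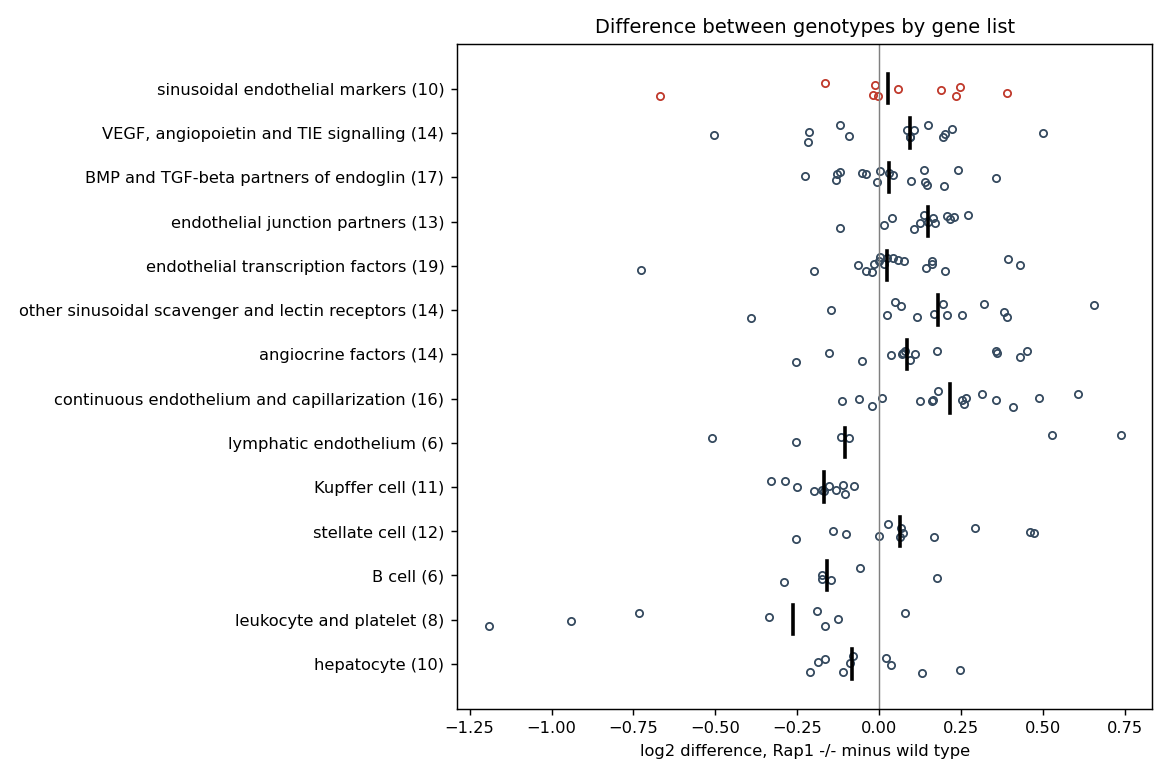
Log2 difference, Rap1 -/- minus wild type, of each tested gene (circles) in the marker set (red, top) and in 13 other lists, with the number of genes in brackets and the list median as a black bar. No gene passed, and list medians lie between -0.26 and 0.22.

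Cells that share some of the markers were examined beside them. For Kupffer cells, which express Stab1 and Fcgr2b as well, 11 of 12 markers were tested and 11 of 11 differences were below 0, with a median of -0.17 and none past the threshold. Timd4 was at -0.33 (SE 0.19), C1qc at -0.29 (SE 0.18) and Clec4f at -0.20 (SE 0.15). With the array median as the scaling, which moved the median of all genes to 0.18, 6 of 11 were below 0 and 11 of 11 below that median. Without both arrays numbered 1, 7 of 11 were below 0. Within slide 1 the count below 0 was 10 of 11 (median -0.37) and within slide 2 it was 3 of 11 (median 0.02). The summed level of the list, in units of each array's 75th percentile, was 167 to 281 in Rap1 -/- livers and 214 to 295 in wild-type livers. For the sinusoidal markers the summed level was 87.2 to 124 in Rap1 -/- livers and 87.9 to 118 in wild-type livers. Such sums are set mostly by the brightest probes, and they are compared between genotypes but not between lists. Vsig4 (0.921), Clec1b (0.887), Adgre1 (0.857) and Cd5l (0.806) of this list also followed the marker mean.

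Leukocyte and platelet markers, which bear on Pecam1, had 7 of 8 differences below 0 and a median of -0.26. Gp9, a platelet glycoprotein, was at -1.19 (SE 0.34, unadjusted p = 0.0065, adjusted p = 0.770), with all 4 Rap1 -/- livers below all wild-type livers, as for 1.3% of all genes, but it was well above background in only 2 of 4 Rap1 -/- livers. Itga2b, the platelet integrin chain, was likewise well above background in only 2 of 4 Rap1 -/- livers, and its difference was -0.94 (SE 0.39), or -0.65 without wild-type replicate 4. Of the other platelet genes listed, Ppbp was at -0.73 (SE 0.43), well above background in 3 of 4 Rap1 -/- livers. Pf4, well above background in all 4 livers of each genotype, was at 0.08 (SE 0.16). Laptm5 was at -0.34 (SE 0.16). Within slide 1 the differences of 8 of the 8 were below 0 and within slide 2 those of 5. The summed level was 7.59 to 10.69 in Rap1 -/- livers and 7.89 to 11.1 in wild-type livers. For B cells, which carry Fcgr2b, 5 of 6 differences were below 0, with 6 of 6 within slide 1, 1 of 6 within slide 2 and 3 of 6 with the array median as the scaling. The summed level was 2.13 to 3.80 in Rap1 -/- livers and 2.77 to 3.81 in wild-type livers, and Blk and Pax5 were not tested. Fcer2a was at -0.29 (SE 0.22) and Cr2 at -0.17 (SE 0.18). The part of any of these cells in the marker levels was not tested.

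Stellate cells, the pericytes of the sinusoid, had 9 of 12 differences above 0 (6 within slide 1, 9 within slide 2) and a median of 0.06, and their summed level was 220 to 257 in Rap1 -/- livers and 230.1 to 252 in wild-type livers. Col3a1 was at 0.46 (SE 0.17, unadjusted p = 0.0253), Rgs5 at 0.47 (SE 0.20) and Col1a1 at 0.29 (SE 0.15), with adjusted p between 0.770 and 0.789. Hepatocyte markers had 4 of 10 above 0 and a median r with the marker mean of 0.03. Their summed level, to which Alb adds much, was 6200.2 to 6466 in Rap1 -/- livers and 6663 to 7308 in wild-type livers. It was not computed under other normalizations. The median difference of the list was -0.08, but 0.02 with normexp and quantile normalization and -0.15 with cyclic loess. Alb was at -0.21 (SE 0.09, adjusted p = 0.770), Serpina1a at -0.19 (SE 0.11) and Cps1 at 0.25 (SE 0.18), and the difference of Alb was above 0 with quantile normalization.

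**Figure D5:**
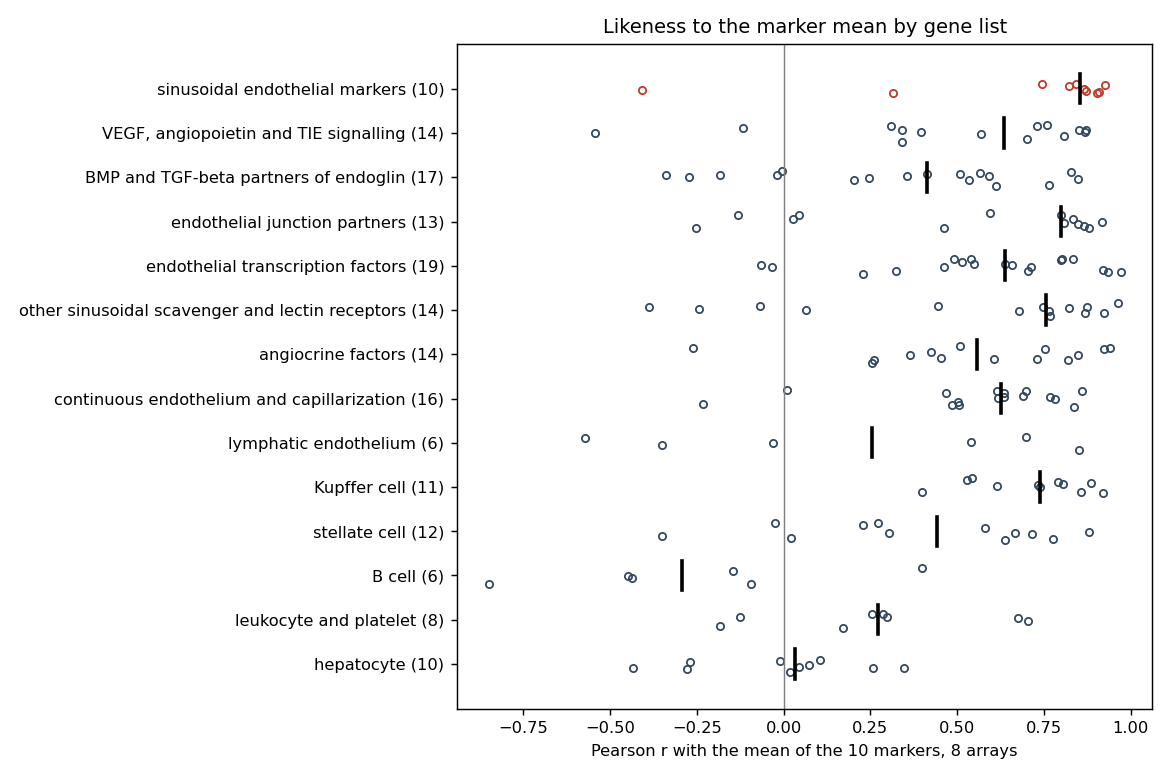
Pearson r of each tested gene with the mean of the 10 markers over the 8 arrays, by list, with the number of genes in brackets and the list median as a black bar. The markers themselves (red, top) are part of that mean. The medians are 0.80 for junction genes, 0.74 for Kupffer cell markers, 0.03 for hepatocyte markers and -0.29 for B cell markers.

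The targeted gene was read once as a check of the labels. Terf2ip probe A_52_P381806 was at -6.28 ± 0.43 in Rap1 -/- livers and at 0.14 ± 0.09 in wild-type livers (SD, n = 4 each, adjusted p = 7.09e-06 by limma) and was not well above background on any Rap1 -/- array. Probe A_55_P2094079 of the same gene was at 0.29 ± 0.18 in Rap1 -/- livers and at -0.92 ± 0.22 in wild-type livers (adjusted p = 0.127 by limma). It was well above background on all 4 Rap1 -/- arrays, so the loss of signal was seen with 1 of the 2 probes. Over all probes 2 of 31068 passed, both lower in Rap1 -/- liver, and 1900 had an unadjusted p under 0.05, of which 874 were higher and 1026 lower. Correlations between arrays were 0.980 to 0.992, and no spot was saturated.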

How the data were processed

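Total liver RNA (RNA integrity numbers 6.5 to 8.5 per the labels) was labelled with Cy3 and hybridized, 1 liver per array. Per the file headers, spots were read with Agilent Feature Extraction 10.7.3.1, and the deposited processed signal is an intensity on a linear scale, background-subtracted but not normalized between arrays. A further table from the authors holds log2 values that were already normalized, which matched normexp correction with quantile normalization to a median absolute difference of 0.00144 and served as an alternative. Its values were within 0.05 of that calculation for 99.5% of entries, its column medians were 6.39 to 6.40, and genes were not centred.

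Spots called outliers by the scanner software were left out, log2 values of repeated spots were averaged, and each array's 75th percentile (220 to 227 in Rap1 -/- arrays, 179 to 209 in wild-type arrays) was subtracted. Probes well above background on at least 4 of 8 arrays were tested, 31068 of 55681. Genotypes were compared with limma 3.58.1 (lmFit, eBayes) in R 4.3.3 without covariates, with Benjamini-Hochberg adjustment over all tested probes, or over 14066 genes represented by the probe with the highest mean, at an adjusted p under 0.05. Single probes were also compared by exact permutation over the 70 partings of 8 arrays. P-values measure the spread between these livers, and the number of arrays limits the precision.

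The files name probes by accession. Symbols were given to 26056 probes (46.8%) through RefSeq accessions of GRCm38.p6, and of 26695 probes with a curated accession 26041 matched. The arrays were annotated on mm9, so coordinates are given only for RefSeq promoter windows.

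The members and gene lists were chosen with earlier results of these data known. Named genes are all 10 markers, the 3 genes of each list with the smallest p, the 10 genes most like the marker mean, and Terf2ip. List genes named for an r over 0.8 with the marker mean were chosen after their values were seen. So were Ppbp and Pf4, named as the remaining platelet genes of their list. The values of 1 gene named by the rule are not reported here. Alternatives were other normalizations, other filters, slide or replicate number as a block, each slide alone, trended and robust variances, and leaving out each array. Normexp, with offset 50, was run on the median spot signal, since the scanner output held no mean signal. Slides were balanced between genotypes, whereas array position and genotype cannot be told apart. The procedure was tested on simulated data.

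Replicate numbers were checked for pairing. Livers with the same number deviated together with correlations of 0.15, -0.09, 0.02 and 0.10, and the labels do not say what a number stands for, so the numbers were not taken as pairs.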

Additional observations from a re-analysis of the deposited data

Results flagged for a closer look

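In 7 of the 100 groups of 4 livers examined (7%), 1 liver lay far from the other three, where chance gives about 1 in 20. Of the markers only Cdh5 was among them, at 1.02 in Rap1 -/- replicate 1, where the next liver of that genotype was at 1.57. The same liver was the lowest of its genotype for Cd34 (0.0404) and for Tek (-2.15). Tgfbr2 was highest in Rap1 -/- replicate 3, at 2.28. Among wild-type livers, replicate 4 was lowest for Jag1 (-1.50) and highest for Itga2b (-1.77), and replicate 2 was highest for Erg (-0.83).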

How the results depend on the processing

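No marker probe passed under any alternative run, whether at an adjusted p under 0.05 or, in the same fit, under 0.15, and the lowest adjusted p of a marker in any alternative was 0.755. Lyve1, Clec4g, Cdh5, Oit3, Fcgr2b and the Kdr probe A_55_P2094469 kept their direction under every alternative run, though not their size when 1 array was left out (0.050 to 0.34 for Cdh5, 0.091 to 0.42 for Clec4g, 0.12 to 0.41 for Oit3). The markers with differences near 0 did not. With normexp and quantile normalization the log2 difference was -0.0042 for Stab2, 0.012 for Pecam1, 0.0011 for Alb and 0.035 for Serpina1a. With quantile normalization alone Alb was at 0.019, and with cyclic loess Pecam1 at 0.0013. In the deposited table of processed values Stab2 was at -0.0026, Alb at 0.011 and Serpina1a at 0.068. With the array median as the scaling Stab1 was at 0.16, Pecam1 at 0.14 and Eng at 0.15, while the median of all genes moved to 0.183, and with no filter on dim probes that median was -0.0084. Within slide 1 Stab2 was at -0.11, the Kdr probe A_51_P316553 at -0.15 and Bmp6 at -0.060. Within slide 2 Stab1 was at 0.16, Pecam1 at 0.077, Eng at 0.18, C1qc at 0.017, Clec4f at 0.064, Cps1 at -0.0021, Cr2 at 0.097 and Erg at 0.064. Without both arrays numbered 1, chosen after seeing the data, Stab1 was at 0.0029, Pecam1 at 0.11 and Eng at 0.11. Leaving out 1 array at a time gave -0.12 to 0.12 for Stab1, -0.056 to 0.15 for Stab2, -0.090 to 0.12 for Pecam1, -0.10 to 0.10 for Eng and -0.035 to 0.25 for the Kdr probe A_51_P316553. The median of the 10 markers was -0.053 without Rap1 -/- replicate 3 and 0.13 without Rap1 -/- replicate 1, and the count of markers with an exact permutation p under 0.05 was 0 to 1, with the 1 found without Rap1 -/- replicate 2. The cause of these changes was not tested. With the replicate number as a block, 0 of 11 probes passed, the lowest adjusted p of a marker was 0.755 and the median was 0.03, so the block changed no call of a marker. The share of all probes that passed was not counted under the alternatives.

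Across the alternatives 214 of 241 recomputed marker values kept their direction, as did 784 of 795 for the genes named from lists. The r of the 10 genes most like the marker mean was 0.95 to 0.98 after each genotype's mean was subtracted. It was 0.81 to 0.98 without the 2 livers farthest from the median, and 0.94 to 0.98 with the Kdr probe A_51_P316553 in the mean. Its lowest value was 0.87 with normexp and quantile normalization, with quantile normalization alone and in the deposited table, and 0.89 with cyclic loess. All these alternatives were added after seeing the data. Precision is limited by 4 livers per genotype.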
